A study of Homo sapiens with 19 samples.

Results

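The genes described here are interferon-stimulated genes, a group of 39 genes listed by name, of which 38 had a probe set naming only that gene, out of 19775 genes measured. The rule uses no measured value, but the members and gene lists were chosen with earlier results of these data known. STAT2 is not analysed here. The study profiled 10 established human colorectal cancer cell lines on Affymetrix expression arrays, with all lines grown untreated in DMEM with fetal bovine serum and harvested during exponential growth. The tested lines are the 5 labelled microsatellite unstable (MSI): RKO, SW48, HCT116, LIM2405 and LS174T, with 2 arrays each. They are set against the 5 labelled microsatellite stable (MSS): HT29, T84, CACO2, SKCO1 and HCC2998. Each MSS line has 2 arrays except T84, which has 1, so the series holds 19 arrays in all. The labels mark the arrays of a line E1 and E2, called cultures here, and do not say whether they were independent cultures. Cells that have lost mismatch repair gain and lose units of short DNA repeats, which is what MSI names, and the lines of each group differ from each other in much besides. Each gene is represented by its brightest single-gene probe set, the arrays of a line were averaged, and all values are log2 unless a fold is named. The median of an array, used here only as a yardstick for a dim value, lay between 5.62 and 5.71. Duplicate arrays of a line correlated across probe sets at 0.978 (HT29) to 0.996 (HCT116 and LIM2405), which describes probe sets and not independent replicates. Differences from a value near the low end of the array are understated.

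Type I and type III interferons bind receptors on the cell surface and, through JAK kinases, activate a transcription factor complex that holds IRF9. This complex binds the interferon-stimulated response element in the promoters of its target genes, which sense viral RNA, block viral replication or tune the response itself. Intestinal epithelial cells respond to these interferons, and many tumour lines keep part of the programme active in culture without added interferon.

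The promoters of 6 members are printed because they hold the letters of that response element and belong to members whose values varied most over the lines. The letters searched were GAAA, then 2 bases of any kind, then GAAA, on both strands, from 250 bases before to 50 bases after a RefSeq transcript start on GRCh38.p14. For IFI27, DDX60, ISG20 and XAF1 that start lies inside the gene and not at its outer end. Overlapping matches were counted separately, and the matches are in capitals. Each is given on the strand of the gene, 5′ to 3′.
IFI27, chr14:94110588-94110690, plus strand: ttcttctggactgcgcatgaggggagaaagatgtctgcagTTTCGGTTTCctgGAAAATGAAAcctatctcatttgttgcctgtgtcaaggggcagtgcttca
IFI44L, chr1:78620244-78620424, plus strand: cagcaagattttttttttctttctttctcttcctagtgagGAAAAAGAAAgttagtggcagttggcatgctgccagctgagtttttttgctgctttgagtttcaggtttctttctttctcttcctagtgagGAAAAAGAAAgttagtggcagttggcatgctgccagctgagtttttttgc
MX1, chr21:41420529-41420587, plus strand: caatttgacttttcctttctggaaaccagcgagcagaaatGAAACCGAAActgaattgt
IFIT1, chr10:89392467-89392569, plus strand: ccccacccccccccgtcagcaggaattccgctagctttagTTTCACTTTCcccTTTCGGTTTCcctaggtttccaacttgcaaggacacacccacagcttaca
SAMD9, chr7:93118066-93118155, minus strand: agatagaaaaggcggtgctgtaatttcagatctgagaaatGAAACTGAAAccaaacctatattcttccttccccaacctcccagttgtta
BST2, chr19:17405705-17405800, minus strand: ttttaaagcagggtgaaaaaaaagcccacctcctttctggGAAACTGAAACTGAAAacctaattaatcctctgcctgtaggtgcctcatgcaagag

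In IFI44L a stretch of 75 bases, with the match inside it, recurs 91 bases further on, so both matches have the same letters and the same flanks. In BST2 the pair of matches overlaps and reads as 3 GAAA units in a row. In IFIT1 both matches run on the opposite strand, and in IFI27 there is 1 on each strand. The MX1 match begins 12 bases past that transcript start, while in the other 5 promoters the matches lie before it. Over all members, 32 of 39 had a promoter in the RefSeq table and 20 of these (62.5%) held the letters, against 3.57% of all 35116 promoter windows of the same length. In 12 of the 32 there were at least 2 matches. A match is a run of letters and was not tested for binding. The members without the letters in this window included XAF1, OAS1, HERC6, RSAD2 and CMPK2. The median difference of T84 from the other lines was 3.16 over the 20 measured members with the letters and 2.78 over the 11 without them.

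For a score of the module, each gene was centred on its mean over the 10 lines and the centred log2 values of the 38 members were averaged within a line. T84 had the highest score at 2.66, and HCC2998 at 0.81 and HT29 at 0.65 came next, all of them MSS lines. The MSI lines followed at 0.12 in HCT116, -0.20 in LS174T, -0.33 in LIM2405 and -0.67 in RKO. CACO2 at -0.77 and SKCO1 at -1.04, both MSS, and SW48 at -1.24, MSI, were at the low end. The MSS lines spanned most of the scale and the MSI lines its lower part, and 2 of the 3 lowest lines were MSS. The pooled SD of the score between duplicate arrays was 0.242, so the steps from HCC2998 to HT29, from LS174T to LIM2405, from RKO to CACO2 and from SKCO1 to SW48 were no wider than that SD. No single array of another line came near T84: the highest was culture E1 of HCC2998 at 1.26.

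**Figure D1:**
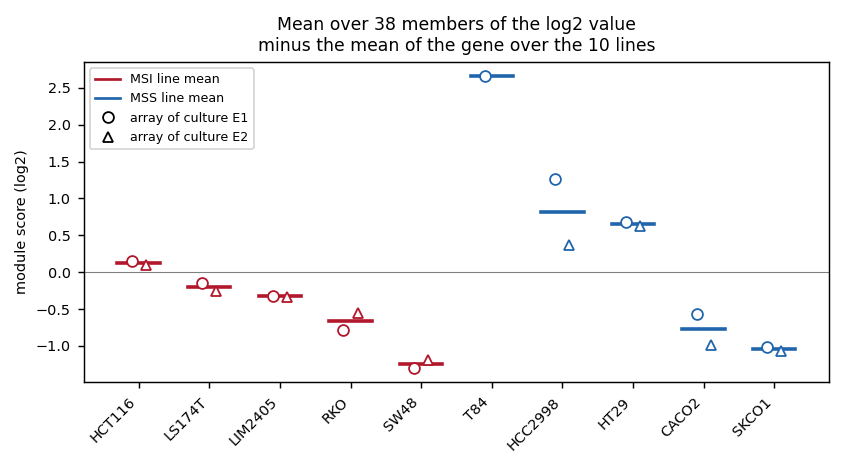
Module score (log2) of each line, MSI lines left of MSS lines. Bars are line means and open symbols are arrays of cultures E1 (circles) and E2 (triangles). T84 has a single array at 2.66, and the arrays of HCC2998 lie apart at 1.26 and 0.37.

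For all 38 members, differences between lines exceeded what the spread of duplicates gives (limma moderated F test, adjusted p under 0.05), against a background of 67.0% of all genes. The SD between lines had a median of 1.51 over the members (0.63 to 3.14). The SD between duplicates had a median of 0.37 (0.115 to 0.686). The ratio of these SDs ran from 1.59 to 11.9. By its SD between lines the median member stood at the 94.1 percentile of all genes, and the lowest member at the 70.2 percentile. In all lines 16 members lay over the array median, and 5 members did so in at most 2 lines.

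T84 was higher than the mean of the other lines for 36 of 38 members at an adjusted p under 0.05, and 0 were lower. Over all genes 9.73% were called higher and 11.7% lower in the same contrast. The median difference over the members was 2.98, against -0.02 over all genes. T84 was the top line for 30 members and among the top 2 for 35. T84 has 1 array, so these p-values rest on the spread between duplicates of the other 9 lines and take T84 to vary as they do. That T84 stood high was known when the members were chosen. Against only the other 4 MSS lines, 34 of 38 members were called higher in T84 (9.25% of all genes). The widest difference was that of IFI44L at 10.98 in T84 against a mean of 4.23 in the other lines, a 108-fold difference (SE 0.59 log2, adjusted p = 4.27e-06). XAF1 stood at 10.71 in T84 against 4.49 (74.8-fold), IFI27 at 13.19 against 7.82 (41.2-fold) and OAS2 at 9.78 against 4.77 (32.2-fold). The 2 members not called were IFIT5, at 9.49 in T84 against 8.69 (adjusted p = 0.0787), and ISG20, at 8.24 in T84 against 8.49 (adjusted p = 0.575). They are named because they are the exceptions.

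**Figure D2:**
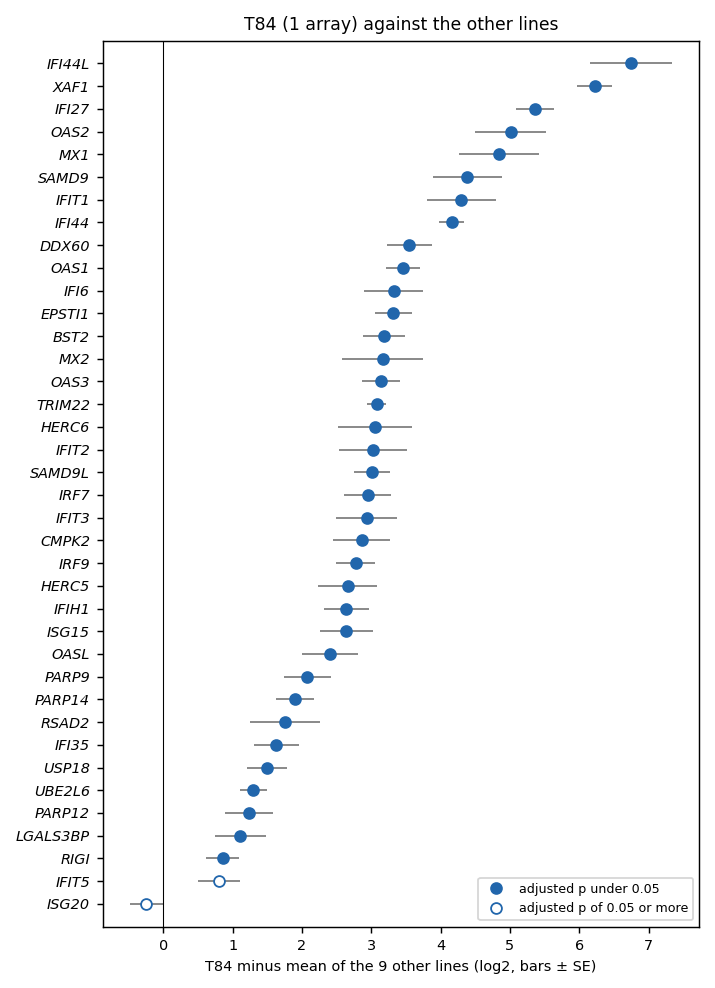
T84 minus the mean of the 9 other lines for each of the 38 members (log2, bars are SE). Filled points have an adjusted p under 0.05. The points run from -0.25 for ISG20 to 6.75 for IFI44L, and 36 are filled.

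The factors that switch the genes on were both high in T84. IRF9, the DNA-binding subunit of the complex that interferons activate, stood at 7.33 in RKO, 7.01 in SW48, 10.10 in HCT116, 9.72 in LIM2405 and 7.47 in LS174T among MSI lines, against 9.39 in HT29, 11.61 in T84, 8.84 in CACO2, 9.26 in SKCO1 and 10.35 in HCC2998 among MSS lines. Its lowest values were in SW48, RKO and LS174T, all MSI, but HCT116 and LIM2405 lay above 3 of the MSS lines, so the groups overlapped. IRF7, which drives transcription of type I interferon genes after virus sensing, stood at 7.90 in RKO, 9.15 in SW48, 8.55 in HCT116, 8.78 in LIM2405 and 9.71 in LS174T (MSI), against 10.21 in HT29, 11.80 in T84, 8.52 in CACO2, 6.60 in SKCO1 and 10.27 in HCC2998 (MSS). It was highest in T84 and lowest in SKCO1, both MSS. The differences of T84 from the other lines were 2.78 ± 0.28 for IRF9 and 2.95 ± 0.34 for IRF7 (SE).

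Of the helicases that sense viral RNA, RIGI and IFIH1 bind double-stranded RNA in the cytosol and signal to the interferon genes, and DDX60 is a related interferon-induced helicase. DDX60 stood at 5.26 in RKO, 4.73 in SW48, 7.90 in HCT116, 5.92 in LIM2405 and 8.96 in LS174T, the MSI lines, against 7.83 in HT29, 10.40 in T84, 4.22 in CACO2, 6.74 in SKCO1 and 10.10 in HCC2998, the MSS lines. It was over 10 in T84 and HCC2998 and under 5.3 in RKO, SW48 and CACO2. IFIH1 stood at 6.09 in RKO, 7.69 in SW48, 8.07 in HCT116, 8.56 in LIM2405 and 7.62 in LS174T among MSI lines, against 8.13 in HT29, 10.04 in T84, 6.83 in CACO2, 4.57 in SKCO1 and 9.02 in HCC2998 among MSS lines. SKCO1 was the low line, well below every other, and T84 was the high one. RIGI stood at 6.98 in RKO, 7.78 in SW48, 8.98 in HCT116, 7.31 in LIM2405 and 8.08 in LS174T (MSI), against 8.67 in HT29, 8.90 in T84, 8.39 in CACO2, 8.18 in SKCO1 and 8.01 in HCC2998 (MSS). It had the narrowest range of all members, with HCT116 and T84 at the top and RKO at the bottom. The order depends on the probe set: the other RIGI probe sets were highest in T84 (8.46 and 8.34). They correlated with the main one over lines at 0.62 and 0.82.

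The oligoadenylate synthetases OAS1, OAS2 and OAS3 make short adenylate chains on double-stranded RNA that activate RNase L, while OASL has lost that activity. OAS1 stood at 5.00 in RKO, 5.25 in SW48, 5.33 in HCT116, 5.18 in LIM2405 and 11.04 in LS174T, the MSI lines, against 9.90 in HT29, 11.14 in T84, 8.29 in CACO2, 9.03 in SKCO1 and 10.09 in HCC2998, the MSS lines. The 4 MSI lines other than LS174T lay between 5.00 and 5.33, all MSS lines lay between 8.29 and 11.14, and LS174T was as high as T84. OAS2, which neighbours OAS1 on chromosome 12, stood at 4.41 in RKO, 4.41 in SW48, 4.45 in HCT116, 4.09 in LIM2405 and 4.92 in LS174T among MSI lines, against 5.93 in HT29, 9.78 in T84, 4.38 in CACO2, 4.23 in SKCO1 and 6.11 in HCC2998 among MSS lines. It was clearly over the array median only in T84 and was near it in HCC2998 and HT29. OAS3, in the same cluster, stood at 8.15 in RKO, 8.64 in SW48, 9.75 in HCT116, 7.16 in LIM2405 and 8.83 in LS174T (MSI), against 9.56 in HT29, 11.91 in T84, 8.52 in CACO2, 8.02 in SKCO1 and 10.34 in HCC2998 (MSS). T84 and HCC2998 were highest and LIM2405 lowest. OASL ranged from 5.51 in SW48 to 8.91 in HT29, with T84 at 8.83. The cultures of HT29 stood at 9.84 (E1) and 7.99 (E2) for OASL, on either side of T84.

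The IFIT proteins bind viral RNA and hold back its translation: IFIT1 recognises caps that lack host methylation, IFIT2 and IFIT3 form complexes with it, and IFIT5 binds RNA ends with a triphosphate. IFIT1 stood at 4.21 in RKO, 4.63 in SW48, 10.14 in HCT116, 7.18 in LIM2405 and 5.09 in LS174T, the MSI lines, against 8.97 in HT29, 11.16 in T84, 7.62 in CACO2, 4.70 in SKCO1 and 9.17 in HCC2998, the MSS lines. HCT116 was the only MSI line near the high MSS lines, and RKO, SW48, SKCO1 and LS174T were all below the array median. IFIT2 stood at 5.88 in RKO, 5.59 in SW48, 9.94 in HCT116, 7.63 in LIM2405 and 6.53 in LS174T among MSI lines, against 8.86 in HT29, 10.24 in T84, 6.03 in CACO2, 5.45 in SKCO1 and 8.99 in HCC2998 among MSS lines. HCT116 was again close to T84, and SW48 and SKCO1 were the low lines. IFIT3 stood at 6.77 in RKO, 6.39 in SW48, 8.49 in HCT116, 7.82 in LIM2405 and 6.67 in LS174T (MSI), against 8.92 in HT29, 10.45 in T84, 7.80 in CACO2, 6.66 in SKCO1 and 8.20 in HCC2998 (MSS). Its values follow those of IFIT1 closely, with T84 highest. IFIT5 ranged from 6.73 in CACO2 to 10.75 in HCT116, and there T84 stood at 9.49, below HCT116, LIM2405 and HCC2998. The top line depends on the probe set: the other one was highest in LIM2405 for IFIT5 (9.72) and in HCT116 for IFIT2 (7.80). For IFIT3 the other probe set was highest in T84 (11.69), as the main one was. HCT116 was called higher than the other lines for IFIT1 by 3.17, for IFIT2 by 2.69 and for IFIT5 by 2.21.

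MX1 and MX2 are dynamin-like GTPases that trap incoming viral particles, and IFI44 and IFI44L are a pair of related interferon-induced proteins. IFI44L, with the repeated promoter stretch printed above, stood at 3.81 in RKO, 3.80 in SW48, 4.01 in HCT116, 3.79 in LIM2405 and 4.03 in LS174T, the MSI lines, against 6.30 in HT29, 10.98 in T84, 3.82 in CACO2, 3.80 in SKCO1 and 4.67 in HCC2998, the MSS lines. Apart from T84, only HT29 was over the array median, through culture E2 at 7.52, with E1 at 5.08. MX1 stood at 9.59 in RKO, 6.80 in SW48, 6.11 in HCT116, 9.41 in LIM2405 and 7.29 in LS174T among MSI lines, against 8.29 in HT29, 12.47 in T84, 5.43 in CACO2, 5.43 in SKCO1 and 10.30 in HCC2998 among MSS lines. RKO and LIM2405, both MSI, and HCC2998 were the next highest after T84, while CACO2 and SKCO1 were lowest. IFI44 stood at 4.08 in RKO, 3.87 in SW48, 4.48 in HCT116, 4.34 in LIM2405 and 4.61 in LS174T (MSI), against 7.78 in HT29, 8.77 in T84, 3.84 in CACO2, 3.89 in SKCO1 and 4.55 in HCC2998 (MSS). T84 and HT29 stood apart from all other lines. MX2 ranged from 4.72 in HCT116 to 8.72 in T84, with HCC2998 at 8.10.

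ISG15 is a ubiquitin-like protein that is joined to other proteins by the conjugating enzyme UBE2L6 and the ligase HERC5, and removed by USP18, which also restrains the interferon receptor. HERC6 is a relative of HERC5. ISG15 stood at 10.17 in RKO, 7.73 in SW48, 12.32 in HCT116, 10.29 in LIM2405 and 11.33 in LS174T, the MSI lines, against 11.67 in HT29, 12.72 in T84, 9.21 in CACO2, 6.80 in SKCO1 and 11.21 in HCC2998, the MSS lines. HCT116 lay close to T84, and SW48 and SKCO1 were lowest. HERC6 stood at 8.26 in RKO, 6.83 in SW48, 8.14 in HCT116, 7.90 in LIM2405 and 8.41 in LS174T among MSI lines, against 8.72 in HT29, 10.91 in T84, 6.45 in CACO2, 7.12 in SKCO1 and 8.93 in HCC2998 among MSS lines. T84 was well above every other line. HERC5 stood at 4.54 in RKO, 4.50 in SW48, 8.13 in HCT116, 5.71 in LIM2405 and 4.82 in LS174T (MSI), against 5.35 in HT29, 8.39 in T84, 6.10 in CACO2, 4.41 in SKCO1 and 8.02 in HCC2998 (MSS). It was high in T84, HCT116 and HCC2998, and 5 lines were below the array median. USP18 ranged from 6.28 in CACO2 to 8.64 in T84. UBE2L6 ranged from 5.80 in SKCO1 to 9.13 in HCT116, and T84 was second at 9.06.

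PARP9, PARP12 and PARP14 belong to the ADP-ribosyltransferase family, and PARP9 acts with the ubiquitin ligase DTX3L. PARP14 stood at 8.32 in RKO, 6.98 in SW48, 8.17 in HCT116, 8.39 in LIM2405 and 8.52 in LS174T, the MSI lines, against 9.65 in HT29, 10.33 in T84, 8.44 in CACO2, 8.15 in SKCO1 and 9.26 in HCC2998, the MSS lines. PARP9 stood at 7.51 in RKO, 7.04 in SW48, 8.89 in HCT116, 7.96 in LIM2405 and 8.17 in LS174T among MSI lines, against 8.73 in HT29, 10.05 in T84, 8.46 in CACO2, 7.01 in SKCO1 and 7.98 in HCC2998 among MSS lines. T84 was the highest line for both. PARP12 stood at 9.96 in RKO, 9.96 in SW48, 9.27 in HCT116, 9.08 in LIM2405 and 9.16 in LS174T (MSI), against 9.32 in HT29, 10.51 in T84, 8.19 in CACO2, 9.33 in SKCO1 and 9.21 in HCC2998 (MSS). It was among the least variable members, with T84 highest and CACO2 lowest.

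Among the other antiviral effectors, SAMD9 restricts poxviruses, BST2 (tetherin) holds budding virions at the cell surface, and CMPK2 is a mitochondrial nucleotide kinase. SAMD9 stood at 7.79 in RKO, 3.74 in SW48, 7.38 in HCT116, 5.62 in LIM2405 and 4.25 in LS174T, the MSI lines, against 8.35 in HT29, 10.32 in T84, 3.63 in CACO2, 6.56 in SKCO1 and 6.14 in HCC2998, the MSS lines. T84, HT29, RKO and HCT116 were high and SW48, CACO2 and LS174T were far below the array median, across both groups. BST2 stood at 10.83 in RKO, 5.20 in SW48, 7.82 in HCT116, 9.83 in LIM2405 and 6.06 in LS174T among MSI lines, against 9.73 in HT29, 10.89 in T84, 10.04 in CACO2, 4.48 in SKCO1 and 5.35 in HCC2998 among MSS lines. RKO was level with T84, and HCC2998, which was high for most members, was near the bottom. CMPK2 stood at 5.75 in RKO, 6.95 in SW48, 5.58 in HCT116, 8.87 in LIM2405 and 8.75 in LS174T (MSI), against 7.05 in HT29, 9.52 in T84, 4.11 in CACO2, 3.95 in SKCO1 and 8.93 in HCC2998 (MSS). T84, HCC2998, LIM2405 and LS174T were high and CACO2 and SKCO1 low. RSAD2 (viperin), which makes a chain-terminating nucleotide and is the neighbour of CMPK2 on chromosome 2, ranged from 4.13 in CACO2 to 8.16 in LIM2405, with T84 at 7.30, below LIM2405 and HCC2998. ISG20, an RNA exonuclease, ranged from 6.66 in SW48 to 11.74 in HCC2998, with T84 at 8.24 in the middle of the order. TRIM22 ranged from 3.50 in CACO2 to 7.31 in T84, and SKCO1 at 6.60 was the only other line over the array median. SAMD9L ranged from 4.15 in LIM2405 to 7.41 in T84, the only line in which it was over the array median.

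The remaining members are widely used as interferon markers. IFI27, a small mitochondrial membrane protein, had the widest range of all members at 8.69 and stood at 9.27 in RKO, 4.49 in SW48, 6.95 in HCT116, 6.43 in LIM2405 and 10.58 in LS174T, the MSI lines, against 10.59 in HT29, 13.19 in T84, 4.82 in CACO2, 5.38 in SKCO1 and 11.89 in HCC2998, the MSS lines. T84, HCC2998, HT29 and LS174T were all over 10, and SW48, CACO2 and SKCO1 were below the array median. XAF1, which promotes cell death by binding the inhibitor XIAP, stood at 4.17 in RKO, 4.14 in SW48, 4.35 in HCT116, 4.16 in LIM2405 and 5.27 in LS174T among MSI lines, against 5.13 in HT29, 10.71 in T84, 4.16 in CACO2, 4.28 in SKCO1 and 4.73 in HCC2998 among MSS lines. T84 alone was over the array median. EPSTI1 stood at 4.55 in RKO, 4.97 in SW48, 5.16 in HCT116, 4.81 in LIM2405 and 5.44 in LS174T (MSI), against 5.72 in HT29, 9.41 in T84, 9.84 in CACO2, 8.54 in SKCO1 and 5.74 in HCC2998 (MSS). CACO2, T84 and SKCO1 were high, although CACO2 and SKCO1 were low for most other members. IFI6, which guards mitochondria against cell death signals, ranged from 5.48 in SKCO1 to 10.59 in T84, with HCT116 at 9.81. IFI35 ranged from 6.95 in SW48 to 9.73 in T84. LGALS3BP, a secreted galectin-binding glycoprotein, ranged from 10.14 in RKO to 12.74 in SKCO1, with T84 second.

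**Figure D3:**
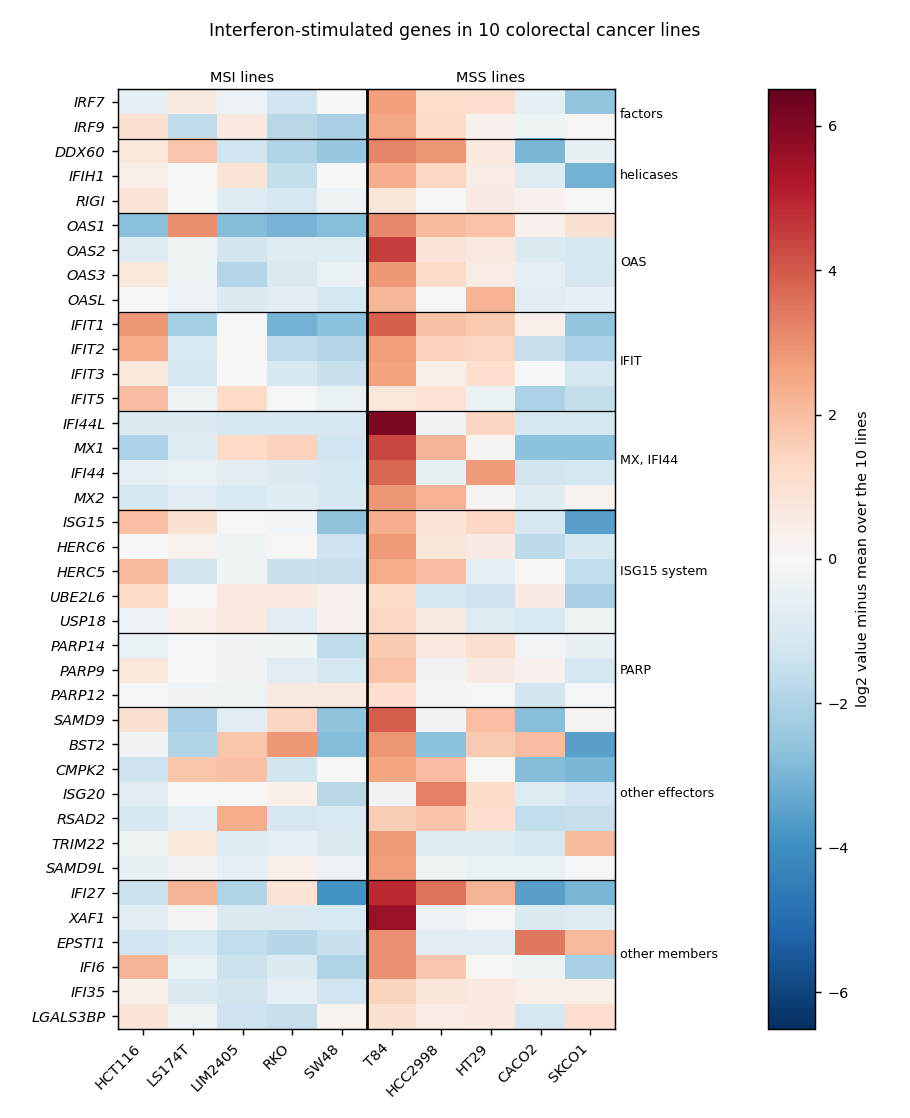
Members in rows, grouped by role, and lines in columns, MSI left of MSS. Colour shows the value centred on the gene's mean over lines (log2). The T84 column is red for all members but ISG20, and the OAS1 row is blue in the MSI lines except LS174T.

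Each of the other lines was set against the rest in the same fit, and T84 is part of that rest. HCC2998 was called higher for 21 of 38 members (background 11.4%) and lower for 5 (16.3%). HT29 was called higher for 18 (13.5%) and lower for 4 (16.4%). HCT116 was split, with 14 higher (14.5%) and 12 lower (14.0%). The remaining lines leaned low. SW48 had 0 higher (14.8%) and 25 lower (14.7%), RKO 5 (19.4%) and 23 (15.6%), and SKCO1 4 (15.5%) and 23 (22.3%). CACO2 had 3 higher (17.4%) and 21 lower (18.6%), LIM2405 9 (19.7%) and 16 (20.4%), and LS174T 6 (21.2%) and 10 (13.7%). With T84 left out of the rest, an alternative chosen after seeing the data, HCT116 had 16 members higher (14.1%) and 6 lower (14.1%). LIM2405 then had 9 higher (19.2%) and 10 lower (20.1%), and LS174T had 8 higher (21.2%) and 8 lower (14.1%). RKO had 7 higher (19.5%) and 17 lower (15.8%). SW48 had 2 higher (15.1%), namely PARP12 (0.78) and UBE2L6 (0.47), and 21 lower (15.3%). HT29 had 25 higher (13.9%) and 3 lower (17.0%), and HCC2998 had 23 higher (11.7%) and 3 lower (17.0%). The members lower in HT29 were UBE2L6 (-1.34), USP18 (-0.76) and TRIM22 (-0.60), and those lower in HCC2998 were BST2 (-2.65), UBE2L6 (-1.08) and TRIM22 (-0.58). CACO2 had 4 higher (17.4%) and 16 lower (19%), and SKCO1 had 5 higher (15.5%) and 19 lower (22.6%). In both of these lines the members higher were those higher against all other lines, with OAS1 (0.69) added in CACO2 and IFI35 (0.65) in SKCO1.

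The lines differed in which members were high, as well as in the score. In HCT116 IFIT1, IFIT2, IFIT5, IFI6 (2.46 above the other lines), HERC5 (2.37) and ISG15 (2.19) were called higher. In the same line OAS1 (-3.00), MX1 (-2.22) and IFI27 (-1.57) were called lower. In LS174T, by contrast, OAS1 (3.35) and IFI27 (2.47) were higher and IFIT1 (-2.45) was lower. In LIM2405 the neighbours RSAD2 (2.70) and CMPK2 (2.13) were higher, together with BST2 (2.01) and MX1 (1.44), and OAS1 (-3.16), IFI27 (-2.15) and OAS3 (-2.14) were lower. RKO was higher for BST2 (3.12), MX1 (1.65), SAMD9 (1.56), IFI27 (1.01) and UBE2L6 (0.69). CACO2 was higher for EPSTI1 (3.80), BST2 (2.24) and UBE2L6 (0.57), and SKCO1 for EPSTI1 (2.36), TRIM22 (2.28), LGALS3BP (1.22) and OAS1 (1.12). HT29 was higher for IFI44 (3.06) and OASL (2.50), and HCC2998 for IFI27 (3.93) and ISG20 (3.63). HT29 was lower for UBE2L6 (-1.47), TRIM22 (-0.93), USP18 (-0.91) and EPSTI1 (-0.78). HCC2998 was lower for BST2 (-2.97), UBE2L6 (-1.21), TRIM22 (-0.92), EPSTI1 (-0.76) and IFI44 (-0.52). The genes named here were picked after their values were seen.

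Likeness was described by Pearson's r over the 10 line means between a member and the mean of the other members, with all points sharing the same lines and arrays. The most alike were HERC6 (0.93), OAS2 (0.93), IFIT3 (0.91), PARP14 (0.90) and IFI44L (0.90). The least alike were UBE2L6 (0.17), EPSTI1 (0.23), BST2 (0.33), LGALS3BP (0.42) and PARP12 (0.42). Without T84, HERC6 stayed at 0.84 and OAS2 at 0.82, while EPSTI1 was at -0.36, UBE2L6 at -0.22 and PARP12 at -0.18. SAMD9L, at 0.73 over all lines, was at -0.32 without T84, and TRIM22, at 0.43, was at -0.31. Over all 703 pairs of members the median r was 0.54, and 0.32 without T84. Members whose starts lie under 200 kb apart formed 15 pairs with a median r of 0.73, and 0.65 without T84. IFI44 and IFI44L on chromosome 1 had 0.92 (0.97 without T84), and IFIT1 and IFIT3 on chromosome 10 had 0.94 (0.95). Not all neighbours were alike: SAMD9 and SAMD9L on chromosome 7 had 0.67, but 0.28 without T84, and OAS1 and OAS3 had 0.57, but 0.43 without T84.

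The contrast of the series, MSI against MSS lines, gave 0 of 38 members at an adjusted p under 0.05 (limma, n = 5 lines each), where 0.0455% of all genes were called. With all arrays and the line as a random block EPSTI1 was called (-2.82, adjusted p = 0.0258), where 1.77% of all genes were. It was also called when the culture number was added as a replicate block (1.54% of all genes). Those fits use a single correlation between arrays of a line for all genes, 0.73 in the first and 0.75 in the second. EPSTI1 had an SD of 0.29 between duplicates and 2.02 between lines, so its p there may be too small. At an unadjusted p under 0.05 there were 5 members, against 9.77% of all genes, all with the lower mean in MSI. The mean was lower in MSI for 32 of 38 members, against 35.7% of all genes. The median difference was -0.89, against 0.07 over all genes. These values rest in part on T84: without it 27 of 38 means were lower in MSI (34.7% of all genes) and the median difference was -0.42. By role, the mean was lower in MSI for 4 of 4 OAS genes, 4 of 4 MX and IFI44 genes, 3 of 3 helicases, 3 of 4 IFIT genes and 2 of 5 genes of the ISG15 system. The colon epithelial markers also had a lower mean in MSI lines for 9 of 9 genes (0 called, median difference -2.03), and their part in the result was not tested.

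In 2 of 38 members (5.26%) all MSI line means lay below all MSS line means, where 2.59% of all genes have the groups apart in either direction. IFI35, an interferon-induced leucine zipper protein, stood at 7.66 in RKO, 6.95 in SW48, 8.59 in HCT116, 7.07 in LIM2405 and 7.38 in LS174T, the MSI lines, against 8.88 in HT29, 9.73 in T84, 8.59 in CACO2, 8.67 in SKCO1 and 9.07 in HCC2998, the MSS lines. The group means were 7.53 ± 0.66 in MSI and 8.99 ± 0.45 in MSS (SD), a difference of -1.46 ± 0.34 (SE, adjusted p = 0.209). The gap is narrow, with HCT116 and CACO2 at 8.59 on either side of it. Single arrays overlapped, with CACO2 at 9.16 (E1) and 8.03 (E2) and HCT116 at 8.66 (E1) and 8.53 (E2). EPSTI1 averaged 4.99 ± 0.34 in MSI and 7.85 ± 1.99 in MSS (SD), a difference of -2.86 ± 0.84 (SE, adjusted p = 0.318, but 0.0258 with the random block). All MSI lines were below the array median for EPSTI1, but HT29 and HCC2998 were only just above it. Single arrays overlapped here too, with E2 of HCC2998 at 5.30 and E2 of HT29 at 5.55, against E1 of LS174T at 5.65.

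The other members with an unadjusted p under 0.05 overlapped between groups. OAS1 averaged 6.36 ± 2.62 in MSI and 9.69 ± 1.08 in MSS (SD), a difference of -3.33 ± 1.17 (SE, adjusted p = 0.393), and LS174T alone held the MSI mean up. Without LS174T the difference was -4.50 and OAS1 was the single member called (adjusted p = 0.0153, with 0.273% of all genes called). MX2 stood at 5.11 in RKO, 4.83 in SW48, 4.72 in HCT116, 4.87 in LIM2405 and 5.13 in LS174T among MSI lines, against 6.04 in HT29, 8.72 in T84, 5.06 in CACO2, 6.10 in SKCO1 and 8.10 in HCC2998 among MSS lines. The MSI lines were all at or below 5.13, CACO2 was level with them, and the difference was -1.87 ± 0.64 (SE, adjusted p = 0.382). PARP14 differed by -1.09 ± 0.45 (SE, adjusted p = 0.482), with SKCO1 and CACO2 inside the MSI range. In the other direction UBE2L6 had the widest difference and stood at 8.51 in RKO, 8.18 in SW48, 9.13 in HCT116, 8.53 in LIM2405 and 7.94 in LS174T (MSI), against 6.57 in HT29, 9.06 in T84, 8.40 in CACO2, 5.80 in SKCO1 and 6.81 in HCC2998 (MSS). Its mean was 8.46 ± 0.45 in MSI and 7.33 ± 1.36 in MSS (SD, adjusted p = 0.578), with T84 and CACO2 inside the MSI range.

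**Figure D4:**
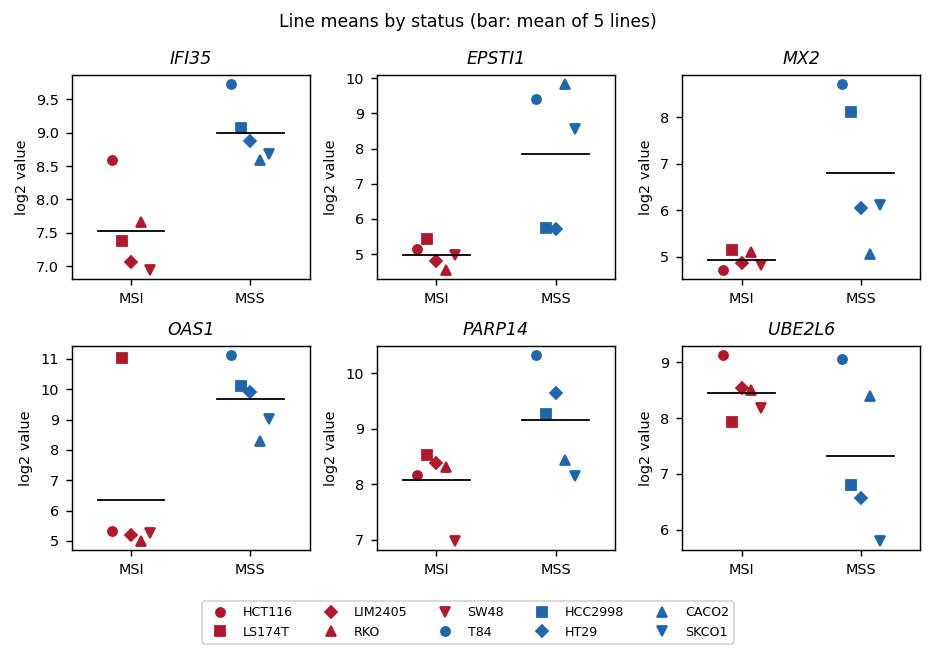
Line means (log2) of 6 members in MSI lines (left of each panel) and MSS lines (right). Each symbol is a line and the bar is the mean of 5 lines. The groups are apart for IFI35 and EPSTI1, and LS174T at 11.04 sits among the MSS lines for OAS1.

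The duplicates of HCC2998 differed in the module. Culture E1 exceeded culture E2 in 34 of 38 members. The median of E1 minus E2 was 0.81 and the range -0.50 to 2.73, while over all genes 45.1% were higher in E1. In 14 members E1 was higher by at least 1 log2, against 0.915% of all genes, and in 0 was it lower by that much (0.748%). MX2 stood at 9.47 in E1 and 6.74 in E2, RSAD2 at 8.75 and 6.38, OAS2 at 7.24 and 4.98, and MX1 at 11.36 and 9.23. ISG20, IFI6, BST2 and LGALS3BP were not higher in E1. The 12 interferon genes measured differed by -0.26 to 0.10 between these cultures (E1 minus E2). With E1 alone HCC2998 was called higher for 23 members (7.85% of all genes) and lower for BST2, TRIM22 and UBE2L6 (11.1%), and with E2 alone for 14 (7.65%) and 8 (9.8%), alternatives chosen after seeing the data. In CACO2, E1 was higher by at least 1 log2 for 9 members, against 2.04% of all genes, and MX1 was the 1 member lower by that much, at 4.62 in E1 and 6.24 in E2 (2.16% of all genes). In HT29, E1 was higher by at least 1 log2 for OASL (1.85), IFIT1 (1.37) and IFIT2 (1.23), against 3.1% of all genes, and lower for IFI44L (-2.44), against 1.34%. In RKO, E1 was lower by that much for SAMD9 (-1.26), HERC6 (-1.20) and PARP9 (-1.14), against 1.1% of all genes. In HCT116, SKCO1, LIM2405, SW48 and LS174T no member differed by 1 log2 between cultures. Each culture has 1 array, so none of these differences has a test.

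**Figure D5:**
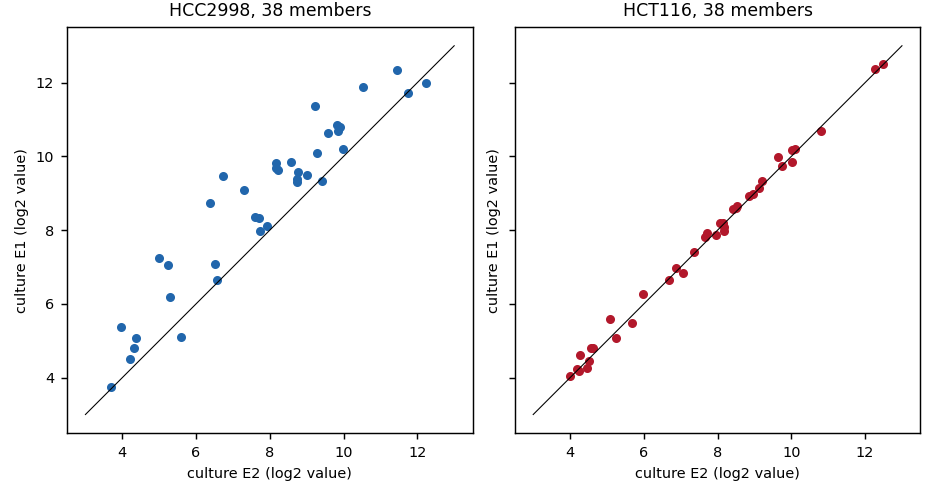
Values (log2) of the 38 members in culture E1 (vertical) against culture E2 (horizontal), in HCC2998 (left) and HCT116 (right). The line marks equal values. In HCC2998, 34 points lie above it, and in HCT116 all lie close to it.

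Genes around the module were counted from lists of known components. Counts in T84 stand beside 9.73% of all genes called higher there and 11.7% called lower. Of 12 interferon genes 0 were called higher in T84, and 11 were below the array median in every line. The exception was IFNE, an epithelial type I interferon, at 8.50 in SW48, 6.09 in LIM2405, 6.07 in HT29 and 6.76 in SKCO1. It was called lower in T84, at 3.80, but RKO, CACO2, HCT116, HCC2998 and LS174T were alike at 3.66 to 3.95. Module scores of the 4 lines with IFNE over the array median were -1.24 in SW48, -1.04 in SKCO1, -0.33 in LIM2405 and 0.65 in HT29. The part of IFNE in the module was not tested. IFNB1 ranged over the lines from 4.51 to 4.88. IFNA1 and IFNL2 were the next widest, from 3.34 to 4.31 and from 4.04 to 4.76.

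Of 9 genes of interferon receptors and their kinases, T84 was called higher for IL10RB (0.82), IFNGR1 (0.99) and TYK2 (0.73) and lower for JAK2 (-1.12). JAK2 ranged from 4.94 in CACO2 to 8.10 in LIM2405, and IFNLR1 from 5.76 in HT29 to 9.14 in LS174T. Of 10 genes that lead to interferon production, STING1 (1.65) and DHX58 (1.37) were higher in T84 and 0 were lower. STING1, the adaptor of cytosolic DNA sensing, ranged from 5.12 in CACO2 to 9.09 in HCT116. CGAS, the sensor upstream of it, ranged from 4.24 in HCT116 to 8.30 in LIM2405, and TRIM25, a ligase that acts on RIGI, from 8.91 in LS174T to 12.21 in SW48. Of 7 negative regulators PTPN6 (0.93) was higher in T84 and PTPN2 (-0.99) lower, and PTPN1 ranged from 7.09 to 8.35.

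Further interferon-stimulated genes that are not members were higher in T84 for 16 of 21 (9.73% of all genes) and lower for 0 (11.7%). Of the widest, IFI16, a DNA sensor, ranged from 3.72 in SKCO1 to 11.62 in RKO, with T84 at 8.31. IFITM3, which blocks viral entry, ranged from 6.21 in CACO2 to 13.48 in HCT116, and LAMP3 from 4.49 in SKCO1 to 11.56 in SW48. Targets tied mainly to interferon gamma were higher in T84 for 5 of 12 (9.73% of all genes) and lower for 0 (11.7%). These were GBP1 (2.38), CXCL10 (2.05), CXCL11 (1.74), APOL1 (1.12) and IRF1 (0.77). HT29 was also higher for 5 of 12 (13.5%) and lower for 0 (16.4%). APOL1 (8.05) and IRF1 (8.87) were highest in HT29, and CXCL11 (6.71) in HCC2998. WARS1 had the widest range of that list, from 8.83 in CACO2 to 12.72 in SW48. In the MSI against MSS contrast 0 genes of these lists were called.

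The cell type of the lines was read from markers. Of 11 immune cell markers 0 were called in either direction in T84, and PTPRC, which all white blood cells carry, was between 3.82 and 4.36 in every line. CD14 was the widest, with 8.35 in CACO2 and 7.24 in HT29, followed by CSF1R (5.90 to 6.98) and LILRA4 (5.01 to 5.74). CD79A (7.13 to 7.73) and CSF1R were over the array median in every line, and ITGAM in 9 lines. PTPRC, CD3E, CD2, MS4A1 and CLEC4C were over it in 0 lines. Of 7 stromal and endothelial markers 0 were called in T84. PDGFRB was the widest, from 4.75 to 6.55, followed by COL3A1 (4.27 to 4.89) and PECAM1 (6.09 to 6.64). COL1A1 lay between 7.65 and 8.09 in every line. Of 9 colon epithelial markers 8 were higher in T84 (9.73% of all genes) and 0 lower (11.7%). SKCO1 was higher for 9 (15.5% of all genes) and lower for 0 (22.3%). CACO2 was higher for 7 (17.4%) and lower for 1 (18.6%), and HT29 for 7 (13.5%) and 2 (16.4%). HCC2998 was higher for 6 (11.4%) and LS174T for 6 (21.2%), with 0 lower in both (16.3% and 13.7%). SW48 had 3 higher (14.8%) and 3 lower (14.7%), and HCT116 2 (14.5%) and 5 (14.0%). LIM2405 had 2 higher (19.7%) and 5 lower (20.4%), and RKO 0 (19.4%) and 9 (15.6%). The part of these markers in the T84 result was not tested. Of the 9 markers called lower in RKO, CDH1 stood at 3.95, KRT19 at 4.81 and EPCAM at 6.15. The other lines stood at 11.94, 11.51 and 12.85 or more. RKO was not the lowest line for CDX2, at 7.3 against 6.47 in HT29. Nor was it for VIL1 (6.39) and LGALS4 (5.26), against 5.22 and 4.80 in LIM2405. LGALS4 was under the array median in RKO, SW48, HCT116, LIM2405 and CACO2 and over 12 in the other lines.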

How the data were processed

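The authors deposited log2 values of 54675 probe sets, made with RMA per the submitters' processing notes. That method removes background, brings arrays to a common distribution and combines the probes of a probe set. Its version is not given in the sources used here. Their log2 unit was read from the values the authors deposited, which run from 2.78 to 14.92 with a median of 5.67. Biotin-labelled target was made from total RNA in one cycle, per the labels' protocols. No normalization was added. The authors' deposited table of means and a t-test was not used here.

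After removal of 62 control probe sets, 41091 of 54613 named 1 gene in the platform annotation used here, 1801 named more than 1, and the other 11721 have no name here. The RefSeq gene table of GRCh38.p14 matched 41037 of the probe sets that name 1 gene. Each of 19775 genes was represented by its brightest single-gene probe set, with no filter on dim genes, and 19 members have other probe sets too. Of those other probe sets 18 exceeded 6 log2 in a line, and they correlated with the main one over lines at 0.62 to 1.00 (median 0.97). Promoter sequences are from RefSeq, GRCh38.p14.

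Members and gene lists were chosen with earlier results of these data known, and T84 was known to stand high. Named members are the 3 of each role group with the widest range over lines and any member passing the MSI minus MSS test. Of each list of other genes the 3 widest are named, with any that passed that test. Where 5 or fewer members were called in a contrast between lines, they are named as well.

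MSI and MSS line means were compared with limma 3.58.1 in R 4.3.3 (lmFit and eBayes, two-sided). Each line was compared with the others, and lines among themselves, on the 19 arrays. Values of p were adjusted by Benjamini-Hochberg over all 19775 genes within each contrast, with a threshold of 0.05. The cell line is the replicate. The labels do not say whether duplicates were independent cultures, so p-values between lines measure only the spread between duplicates, which may be technical. The fits were tested on simulated data. Arrays have no read depth, and precision is limited by how many lines there are. Alternatives were other probe sets, a filter on dim genes, further normalization, eBayes settings, all arrays with line as a random block, the culture number as a block, and each line left out.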

Additional observations from a re-analysis of the deposited data

Results flagged for a closer look

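Each member and the module score were examined in the 5 MSI and the 5 MSS lines for a line whose gap to its nearest neighbour exceeds 0.71 of the range of the group (Dixon's criterion). Of 78 such groups 7 passed, and chance flags about 1 in 20 (5%).

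Among MSI lines, LS174T stood apart for OAS1 at 11.04, against 5.00 to 5.33 in the other 4, with a gap of 0.945 of the range. LS174T was also apart for XAF1 at 5.27, against 4.14 to 4.35 (0.816), although all these values are below the array median. LIM2405 was apart for RSAD2 at 8.16, against 4.62 to 5.07 (0.872). SW48 was apart at the low side for PARP14 at 6.98, against 8.17 to 8.52 (0.775).

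Among MSS lines, T84 was apart for SAMD9L at 7.41, against 4.25 to 4.55 in the other 4 (0.905 of the range), and for XAF1 at 10.71, against 4.16 to 5.13 (0.852). CACO2 was apart at the low side for LGALS3BP at 10.50, against 12.12 to 12.74 (0.726). The module score was not flagged in either group.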

How the results depend on the processing

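Over all alternatives run, the members called between lines were 38 of 38, or 31 of 31 with probe sets that carry no s or x suffix. The members called higher in T84 were 34 to 37 of 38, or 29 of 31 with those probe sets. With the culture number as a replicate block 35 were called. The count of members called between MSI and MSS was 0 except in 3 fits, each with 1 member. These were EPSTI1 with all arrays and line as a random block (-2.82, adjusted p = 0.0258), EPSTI1 when the replicate block was added to that fit (-2.80, adjusted p = 0.0332), and OAS1 without LS174T (-4.50, adjusted p = 0.0153). Over the alternatives the adjusted p ran from 0.0258 to 0.503 for EPSTI1, from 0.0153 to 0.614 for OAS1 and from 0.0551 to 0.341 for IFI35. Leaving out each line in turn gave 0 to 1 members called, 27 to 35 members with a lower mean in MSI, and a median difference of -1.37 (without SKCO1) to -0.42 (without T84). The module score of HCT116 changed sign to -0.081 when the median over members replaced the mean. The cause was not tested.

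The culture numbers were not used to pair samples: among 36 pairs of lines the differences between cultures correlated across genes at -0.15 to 0.23 (median 0.06), with 11 over 0.1. Differences from dim values are understated, T84 has 1 array, and 5 lines a group limit the MSI comparison.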
